A study of Rattus norvegicus with 12 samples.

Results

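Insulin-like growth factor (IGF) signalling genes were followed in cultured neonatal rat heart cells given DEHP, di(2-ethylhexyl) phthalate, which softens medical plastics and leaches from them. The 10 genes were the ligands Igf1 and Igf2, the receptors Igf1r and Igf2r, and the binding proteins Igfbp2 to Igfbp7, chosen by name from the probe sets that the platform annotation pairs with a single gene symbol. They were 10 of 14324 genes measured, each with 1 probe set. The set was chosen with earlier results of these data known. Hearts of Sprague-Dawley rats aged 2 days gave the cells, which grew as monolayers for 3 days and then for another 3 days in 0.1% dimethyl sulphoxide. The vehicle group received the solvent alone, and the other 3 groups received DEHP in it at 1, 10 or 50 µg/ml. Each group had 3 Affymetrix arrays, 12 in all. Per the series description, a single litter supplied every culture, and the p-values therefore reflect only how cultures of 1 litter vary. The labels name no batch of plating, extraction or hybridisation, so such a batch, had it followed the doses, and the dose itself cannot be told apart.

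IGF1 and IGF2 are secreted growth factors that act through the IGF1 receptor, a tyrosine kinase that feeds the PI3K and AKT pathway and supports growth and survival of heart muscle. The IGF2 receptor clears IGF2 into lysosomes and does not signal as a kinase. The binding proteins hold IGFs outside cells, can block or prolong their action, and are cut by secreted proteases that set the ligand free. IGFBP7 binds IGFs only weakly and is often classed as a related protein.

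Igfbp5 and Igfbp4 had the largest rises over the vehicle, Igfbp2 lies beside Igfbp5 in the genome, and Igfbp3 was the member that fell at the lowest dose. Their promoter windows are shown so that their differing make-up can be read beside the values. Each window holds 250 bases before and 50 bases after the annotated start, from RefSeq on build GRCr8, printed 5′ to 3′ on the gene's own strand. The windows are chr9:81914138-81914437 for Igfbp5 (minus strand), chr10:84491221-84491520 for Igfbp4 (plus strand), chr9:81864561-81864860 for Igfbp2 (plus strand) and chr14:86277895-86278194 for Igfbp3 (minus strand). Capitals mark matches to the motifs searched.
Igfbp5: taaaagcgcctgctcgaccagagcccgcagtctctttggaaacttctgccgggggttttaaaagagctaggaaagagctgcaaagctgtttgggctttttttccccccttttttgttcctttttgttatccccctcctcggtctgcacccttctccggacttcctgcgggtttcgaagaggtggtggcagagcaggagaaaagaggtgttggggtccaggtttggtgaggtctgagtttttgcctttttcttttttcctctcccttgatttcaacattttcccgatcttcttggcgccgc
Igfbp4: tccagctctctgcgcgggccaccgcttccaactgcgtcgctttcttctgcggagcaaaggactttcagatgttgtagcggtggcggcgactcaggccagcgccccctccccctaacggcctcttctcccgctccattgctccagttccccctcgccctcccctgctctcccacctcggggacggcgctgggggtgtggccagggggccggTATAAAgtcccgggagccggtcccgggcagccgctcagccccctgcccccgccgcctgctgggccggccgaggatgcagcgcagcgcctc
Igfbp2: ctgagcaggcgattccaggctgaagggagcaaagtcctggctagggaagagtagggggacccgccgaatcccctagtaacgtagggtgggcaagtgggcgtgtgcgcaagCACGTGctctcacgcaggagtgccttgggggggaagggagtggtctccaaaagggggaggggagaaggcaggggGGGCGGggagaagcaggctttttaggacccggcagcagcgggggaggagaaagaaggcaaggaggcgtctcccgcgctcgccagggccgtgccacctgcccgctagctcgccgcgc
Igfbp3: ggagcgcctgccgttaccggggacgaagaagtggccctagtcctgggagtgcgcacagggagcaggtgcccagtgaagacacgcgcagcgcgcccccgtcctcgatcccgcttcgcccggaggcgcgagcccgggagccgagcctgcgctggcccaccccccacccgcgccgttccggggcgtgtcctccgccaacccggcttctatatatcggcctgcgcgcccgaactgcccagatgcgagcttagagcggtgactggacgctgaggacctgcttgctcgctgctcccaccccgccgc

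The motifs, searched on both strands in all 33469 windows of the table, were the TATA box written as TATAAA, the GC box written as GGGCGG, a FOXO site written as TGTTTAC, the AP-1 site written as TGACTCA, the hexamer of nuclear receptors written as AGGTCA and the E-box written as CACGTG. The Igfbp4 window held TATAAA 40 bases before the start, a motif present in 14.2% of all windows. The Igfbp2 window held CACGTG 140 bases and GGGCGG 66 bases before the start, motifs present in 6.42% and 33.1% of all windows. The Igfbp5 and Igfbp3 windows held none of the 6 motifs. Guanine and cytosine made up 50.7% of the Igfbp5 window, against 71% for Igfbp4, 66.7% for Igfbp2 and 71.7% for Igfbp3, with a median of 51.7% over all windows. All 10 members had a window, 11 in all because Igf2 had 2. GGGCGG was found for 5 members (Igf2, Igf1r, Igf2r, Igfbp2 and Igfbp7), CACGTG for 3 (Igf1r, Igf2r and Igfbp2), AGGTCA for 2 (Igf1 and Igfbp6, 16.2% of all windows) and TGTTTAC for Igfbp6 (3.78% of all windows). TGACTCA, present in 4.63% of all windows, matched no member. Matches of different motifs did not overlap in the members' windows, and a match is a description of letters, not a site.

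At 50 µg/ml the largest differences were in binding protein genes, though not in all of them. Igfbp5, Igfbp4 and Igfbp2 rose, Igfbp7 and the ligand Igf1 rose by less, and neither receptor nor Igf2 passed the test. The binding protein genes Igfbp3 (0.25) and Igfbp6, which was lower (-0.27), did not pass it either. Of the 10 members, 5 rose and none fell at an adjusted p under 0.05, where 17.6% of all genes were called and 8.75% were called higher. The members' median difference was 0.22 on the log2 scale, against 0.02 over all genes. Because the members were chosen with earlier results of these data known, these contrasts describe the set and do not test it. The arrays of the 50 µg/ml group lay wholly above or below those of the vehicle for 7 members, as they did for 36% of all genes. All values are log2 of the array's value over the median of that probe set on the 12 arrays, set against the vehicle mean, so a difference is a log2 fold change. The level itself is lost in such ratios, and no member's abundance could be compared with another's. Differences are given with the standard error (SE) from limma, which pools a gene's spread over all 12 arrays and moderates it across genes. A gene's SE is therefore the same in each comparison of groups and is not the spread of the compared groups alone. The p-values were adjusted over all genes by the Benjamini-Hochberg method.

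Libraries differed in spread more than in centre. In the 10 µg/ml group, replicate 2 had a standard deviation of log2 values over all genes of 0.18, against 0.09 and 0.08 for replicates 1 and 3, and the 50 µg/ml arrays had 0.19, 0.22 and 0.20. Markers of heart muscle were measured for 10 of 10 genes listed, but their presence could not be checked as a level.

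**Figure D1:**
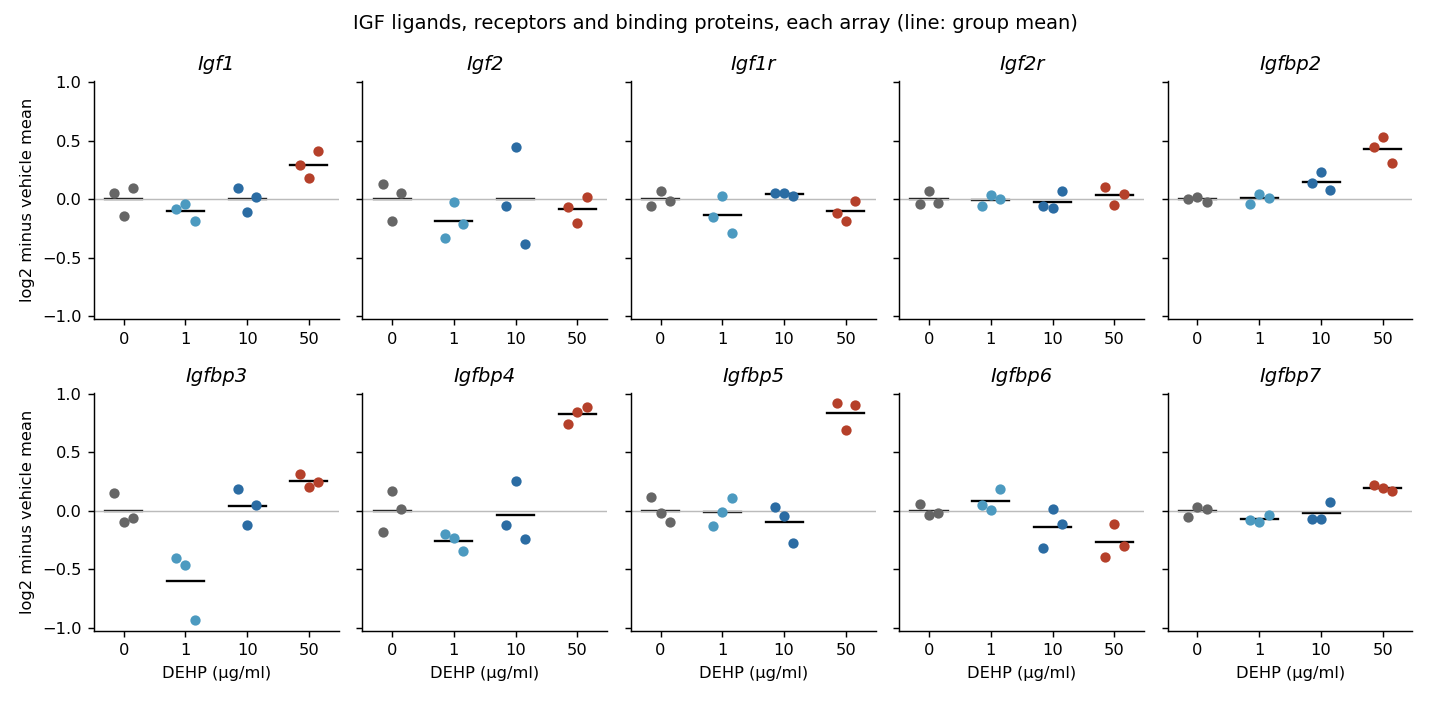
Each panel plots 1 member in the 12 arrays, with the DEHP dose (µg/ml) on the x axis and log2 minus the vehicle mean on the y axis; points are arrays and lines are group means. The 3 arrays at 50 µg/ml lie above all others for Igf1, Igfbp2, Igfbp3, Igfbp4, Igfbp5 and Igfbp7, though Igfbp3 was not called at that dose. The 3 arrays at 1 µg/ml lie below all others for Igfbp3.

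Igf1, the ligand that drives growth through the IGF1 receptor, was at 0.05, -0.14 and 0.09 in the 3 vehicle arrays. It was at -0.08, -0.04 and -0.19 at 1 µg/ml, at 0.09, -0.11 and 0.02 at 10 µg/ml, and at 0.29, 0.18 and 0.41 at 50 µg/ml. Every array at 50 µg/ml lay above every other array. Igf1 rose by 0.29 ± 0.08 (SE) at 50 µg/ml, a fold of 1.22 (adjusted p = 0.0209, limma). This call was lost without vehicle replicate 2 (0.22, adjusted p = 0.0959) and without 50 µg/ml replicate 1 (0.29, adjusted p = 0.0502) or replicate 3 (0.23, adjusted p = 0.0886), and under a second quantile normalization (0.24, adjusted p = 0.0941).

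Igf2, the fetal ligand expressed from an imprinted locus, was the member with the widest scatter within groups. Its vehicle arrays were at 0.13, -0.18 and 0.05, its 1 µg/ml arrays at -0.33, -0.02 and -0.21, and its 50 µg/ml arrays at -0.07, -0.21 and 0.02. At 10 µg/ml the 3 arrays were at -0.06, 0.44 and -0.38, the highest and the lowest of all 12, and the highest was replicate 2. The residual standard deviation of Igf2 was 0.24, larger than that of 99.8% of genes, with a median of 0.08 over all genes. The groups overlapped at every dose, and the difference at 50 µg/ml was -0.09 ± 0.16 (95% interval -0.44 to 0.27, adjusted p = 0.788). A fall as large as the rise of Igf1 lies inside this interval and is not excluded. The interval rests on a spread pooled over all 12 arrays. Within groups the standard deviation was 0.41 at 10 µg/ml, against 0.16 in the vehicle and 0.11 at 50 µg/ml.

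Neither receptor passed the test at any dose. Igf1r, the signalling kinase, was at -0.05, 0.07 and -0.02 in the vehicle arrays, at -0.15, 0.03 and -0.28 at 1 µg/ml, at 0.06, 0.05 and 0.02 at 10 µg/ml and at -0.12, -0.19 and -0.01 at 50 µg/ml. The vehicle arrays overlapped those of each dose, with a difference at 50 µg/ml of -0.10 ± 0.07 (95% interval -0.26 to 0.05, adjusted p = 0.389). Its range over the 12 arrays, 0.36, was larger than that of 52.5% of genes. Igf2r, the clearance receptor, spanned 0.18 over all 12 arrays, a range larger than that of 13.4% of genes. Its difference at 50 µg/ml was 0.03 ± 0.06 (95% interval -0.09 to 0.16, adjusted p = 0.762), so a change of over 0.16 in either direction lay outside the interval.

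Igfbp5, a binding protein held in the extracellular matrix, was at 0.12, -0.02 and -0.10 in the vehicle arrays. It was at -0.13, -0.01 and 0.11 at 1 µg/ml, at 0.03, -0.04 and -0.27 at 10 µg/ml, and at 0.92, 0.69 and 0.90 at 50 µg/ml. The 9 arrays of the vehicle, 1 and 10 µg/ml groups overlapped each other, and the 50 µg/ml arrays stood clear of all of them. Igfbp5 rose 1.78-fold at 50 µg/ml (0.84 ± 0.09, adjusted p = 4.94e-05). Its call held under all 20 alternatives, with a smallest value of 0.52 under a second quantile normalization (adjusted p = 0.0131).

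Igfbp4, a binding protein that mainly inhibits IGF action until it is cut, was at -0.18, 0.17 and 0.02 in the vehicle arrays. It was at -0.20, -0.24 and -0.35 at 1 µg/ml, at -0.12, 0.26 and -0.24 at 10 µg/ml, and at 0.74, 0.85 and 0.89 at 50 µg/ml. The 50 µg/ml arrays lay above all others, and the 1 µg/ml arrays lay just below the vehicle arrays. Igfbp4 rose 1.77-fold at 50 µg/ml (0.82 ± 0.11, adjusted p = 0.00029). The difference was 0.46 (adjusted p = 0.0356) under a second quantile normalization, the smallest value of its 20 alternatives. Its difference of -0.26 ± 0.11 at 1 µg/ml did not pass the test (adjusted p = 0.228).

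Igfbp2, a circulating binding protein, was at 0.00, 0.02 and -0.03 in the vehicle arrays and at -0.04, 0.05 and 0.01 at 1 µg/ml. It was at 0.14, 0.23 and 0.08 at 10 µg/ml and at 0.44, 0.53 and 0.31 at 50 µg/ml. Arrays at 10 µg/ml lay above those of the vehicle and below those at 50 µg/ml. Igfbp2 rose 1.34-fold at 50 µg/ml (0.43 ± 0.06, adjusted p = 0.000315) and kept its call under all 20 alternatives. Its difference at 10 µg/ml, 0.15 ± 0.06, did not pass the test (95% interval 0.02 to 0.28, adjusted p = 0.771).

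Igfbp7, the secreted relative with low affinity for IGFs, was at -0.05, 0.04 and 0.02 in the vehicle arrays and at 0.22, 0.19 and 0.17 at 50 µg/ml. It was at -0.08, -0.10 and -0.03 at 1 µg/ml and at -0.07, -0.07 and 0.07 at 10 µg/ml. The rise at 50 µg/ml was small and tight, 0.19 ± 0.05 or 1.14-fold (adjusted p = 0.0162), with the 50 µg/ml arrays above all others. The call was lost without vehicle replicate 1 (0.17, adjusted p = 0.0779), without 50 µg/ml replicate 1 (0.18, adjusted p = 0.0523) and under a second quantile normalization (0.14, adjusted p = 0.127).

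Igfbp6, a binding protein that prefers IGF2, was the member with the lowest value at 50 µg/ml. It was at 0.06, -0.04 and -0.02 in the vehicle arrays, at 0.05, 0.01 and 0.19 at 1 µg/ml, at -0.32, 0.02 and -0.11 at 10 µg/ml and at -0.40, -0.11 and -0.30 at 50 µg/ml. The 50 µg/ml arrays lay below the vehicle arrays and overlapped those at 10 µg/ml. The difference from the vehicle at 50 µg/ml, -0.27 ± 0.09, missed the threshold (95% interval -0.46 to -0.08, adjusted p = 0.054). With the replicate number as a block it passed (adjusted p = 0.0493), and it passed in 7 of 20 alternatives.

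Igfbp3, the main carrier of IGFs in blood, showed a different order of doses. It was at 0.15, -0.10 and -0.06 in the vehicle arrays, at -0.40, -0.46 and -0.93 at 1 µg/ml, at 0.18, -0.12 and 0.05 at 10 µg/ml and at 0.31, 0.20 and 0.24 at 50 µg/ml. The 1 µg/ml arrays lay below all others, the vehicle and 10 µg/ml arrays overlapped, and the 50 µg/ml arrays lay above both. Igfbp3 fell 1.52-fold at 1 µg/ml (-0.60 ± 0.12, adjusted p = 0.0192). Without vehicle replicate 1 the difference was -0.52 (adjusted p = 0.0808) and without vehicle replicate 3 it was -0.63 (adjusted p = 0.0558), so the call was lost in both cases. At 50 µg/ml the difference from the vehicle, 0.25 ± 0.12, did not pass the test (95% interval -0.01 to 0.52, adjusted p = 0.199), and it passed in 1 of 20 alternatives, the compared groups alone in the fit (adjusted p = 0.0369).

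**Figure D2:**
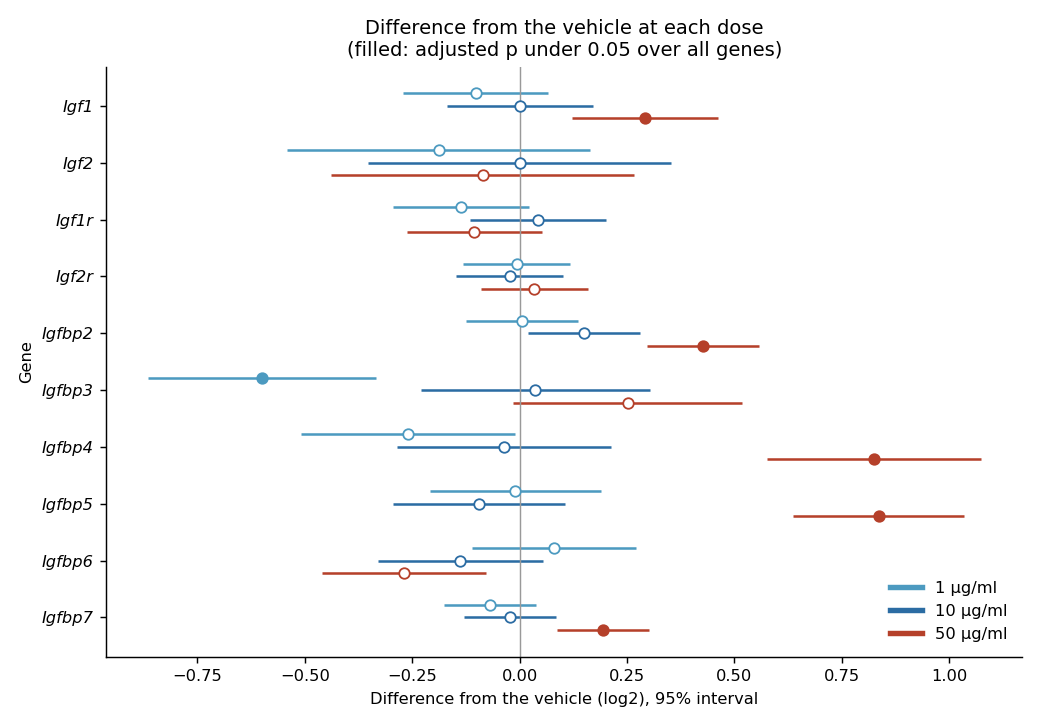
Differences from the vehicle (x axis, log2) for the 10 members (y axis) at 1, 10 and 50 µg/ml, with 95% intervals from limma as bars; filled points passed an adjusted p under 0.05. At 50 µg/ml 5 members are filled, led by Igfbp5 (0.84) and Igfbp4 (0.82), at 1 µg/ml Igfbp3 alone (-0.60), and at 10 µg/ml none.

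Igfbp3 was the only member called at 1 µg/ml, against 4.24% of all genes called and 1.74% called lower. The members' median difference was -0.09 there. Igfbp3 and Igfbp4 were the 2 members whose 1 µg/ml and vehicle arrays did not overlap, as was true of 30.8% of genes. At 10 µg/ml none of the members was called, as was none of all genes by limma (0%), the only tool run. At an unadjusted p under 0.05, 899 genes and 1 member, Igfbp2, passed at 10 µg/ml. Igfbp2 was also the 1 member whose arrays did not overlap with the vehicle at that dose, as was true of 11.2% of genes. The 3 dose comparisons share the vehicle arrays.

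Between doses, Igfbp4, Igfbp5, Igf1, Igfbp2 and Igfbp7 were higher at 50 than at 10 µg/ml, 5 members against 7.75% of all genes called higher. Igfbp5 was 1.91-fold higher (0.93 ± 0.09, adjusted p = 2.75e-05) and Igfbp4 1.82-fold higher (0.86 ± 0.11, adjusted p = 0.000269). Under a second quantile normalization Igfbp4 was at 0.56, and Igf1, Igfbp2 and Igfbp7, at 0.19, 0.18 and 0.15, were not called. Without 10 µg/ml replicate 2 or 50 µg/ml replicate 1 or 3, Igf1 was not called there (adjusted p up to 0.102, against 0.247 under the second quantile normalization). With the compared groups alone in the fit only Igfbp4 and Igfbp5 were called. The comparison of 50 with 1 µg/ml called 6 members higher and Igfbp6 lower, where 11.5% of genes were called higher and 13.4% lower. Igfbp4 was 2.12-fold higher (1.08 ± 0.11, adjusted p = 4.02e-05), and Igfbp3 1.8-fold higher (0.85 ± 0.12, adjusted p = 0.000429). Igfbp5 was higher by 0.85 ± 0.09, and by 0.54 under a second quantile normalization. Igfbp6 was lower by -0.35 ± 0.09 (adjusted p = 0.0127). This call was lost without 1 µg/ml replicate 3 (adjusted p = 0.0549) and under a second quantile normalization (-0.27, adjusted p = 0.0829). At 10 against 1 µg/ml Igfbp3 alone was higher (0.64 ± 0.12, adjusted p = 0.00751), with 4.77% of genes called higher.

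A linear trend over the order of the 4 groups, the dose dependence named in the series title, passed for 7 members. It rose for Igf1, Igfbp2, Igfbp3, Igfbp4, Igfbp5 and Igfbp7, where 8.65% of genes rose, and fell for Igfbp6, where 9.66% fell. The slope per dose step was 0.27 for Igfbp4, 0.24 for Igfbp5, 0.14 for Igfbp2 and -0.10 for Igfbp6 (adjusted p = 0.0233, limma). The trend treats the groups as equal steps. For Igfbp5, Igfbp4, Igfbp2, Igfbp7 and Igf1 only the 50 µg/ml group was called against the vehicle, and Igfbp6 was called against it at no dose. Igfbp3 was called against the vehicle only for its fall at 1 µg/ml (-0.60), so its slope of 0.14 is not a steady rise with dose. The same 7 members were called by the F test over all 4 groups, which called 27.2% of genes. Igfbp3, Igfbp4 and Igfbp5 had ranges over the 12 arrays of 1.24, 1.24 and 1.19, each larger than that of at least 98.8% of genes.

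Genes that lie beside members in the genome were compared with them. In RefSeq's annotation of GRCr8, Igfbp2 and Igfbp5 are adjacent on chromosome 9 with 0 annotated genes between them, on opposite strands. Both rose at 50 µg/ml, and at 10 µg/ml Igfbp2 arrays were at 0.08 to 0.23 where Igfbp5 arrays were at -0.27 to 0.03. Igfbp1 and Igfbp3 are adjacent on chromosome 14, with 0 genes between. Igfbp1, a further binding protein gene that is not among the members, was looked at because it neighbours Igfbp3. It was at -0.01, 0.02 and -0.03 at 1 µg/ml and its difference there was -0.01 ± 0.05 (95% interval -0.12 to 0.11, adjusted p = 0.976). At 50 µg/ml, where other binding protein genes rose, Igfbp1 differed by 0.05 ± 0.05 and was not called (adjusted p = 0.573, limma). H19, the imprinted noncoding RNA gene next to Igf2 on chromosome 1, was at 0.24, -0.30 and 0.06 in the vehicle arrays and at -0.75, -1.04 and -0.87 at 50 µg/ml. H19 fell at 50 µg/ml (-0.89 ± 0.15, adjusted p = 0.00145), and its 2 probe sets gave -0.84 and -0.93. Igf2 differed by -0.09 in the same comparison.

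**Figure D3:**
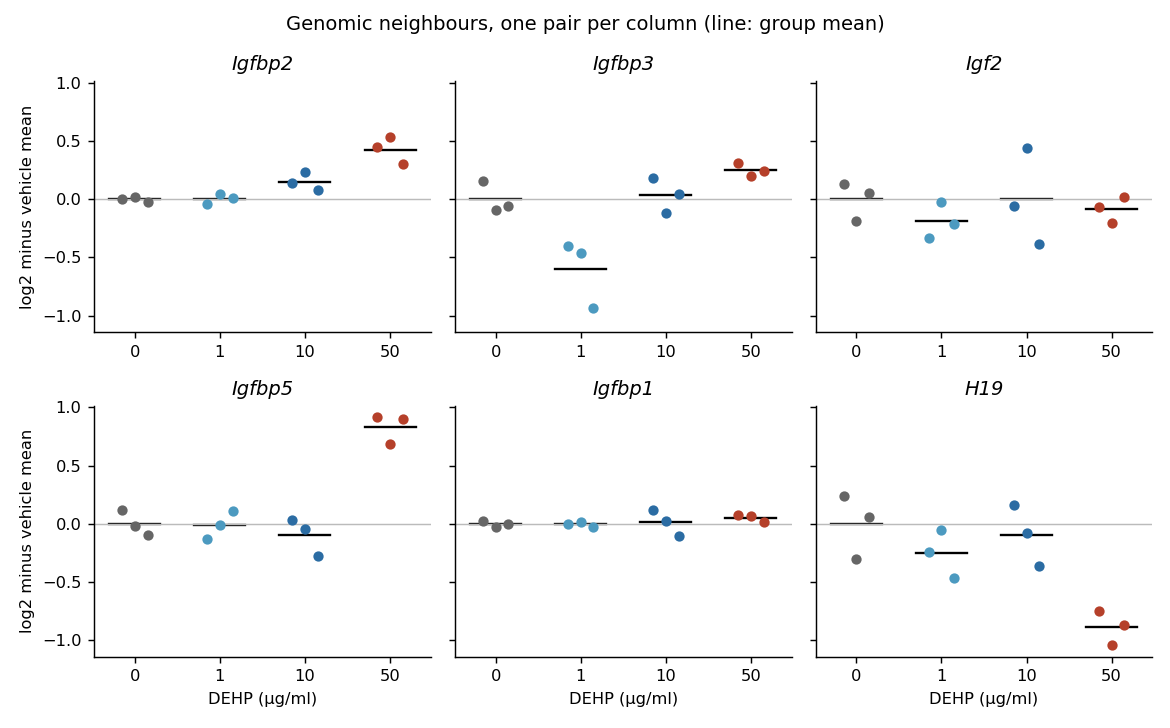
Arrays of 3 adjacent gene pairs, 1 pair per column, with DEHP dose (µg/ml) on the x axis and log2 minus the vehicle mean on the y axis; points are arrays and lines are group means. H19 lies at -0.75 to -1.04 at 50 µg/ml where Igf2 lies at -0.21 to 0.02.

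The genes nearest in pattern to Igfbp5, Igfbp4 and Igfbp3, the 3 members with the largest differences, were found by root mean square difference over the 12 arrays, with each gene centred on its own mean over those arrays and not on the vehicle mean. Nearest to Igfbp5 were Mest (0.118), Dhrs3 (0.118) and Sox4 (0.12), with differences from the vehicle at 50 µg/ml of 0.62, 0.90 and 0.73, against 0.84 for Igfbp5. Mest was at -0.23 at 10 µg/ml, where Igfbp5 was at -0.10. Nearest to Igfbp4 were Ttyh3 (0.113), Lbp (0.124) and Tmem176b (0.138), with differences at 50 µg/ml of 0.66, 0.85 and 0.78. Nearest to Igfbp3 were Adgrl4 (0.161), Bhlhe40 (0.165) and Atp6v0d2 (0.193), with differences at 1 µg/ml of -0.58, -0.49 and -0.27. The likeness says how closely the values run together in these arrays and nothing of shared control.

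Around the members, listed genes of the wider IGF system moved in both directions at 50 µg/ml. Of the 9 of 12 listed binding protein proteases and inhibitors measured, 2 rose and 2 fell. Pappa, the metalloprotease that cuts IGFBP4, was at -0.05, -0.10 and 0.15 in the vehicle arrays and at 0.74, 0.80 and 0.98 at 50 µg/ml, a rise of 0.84 ± 0.10 (adjusted p = 0.000107). Stc1, which inhibits that protease, was at -0.79, -0.95 and -0.48 at 50 µg/ml and fell (-0.74 ± 0.13, adjusted p = 0.0019), with -0.42 under a second quantile normalization. Their arrays at 50 µg/ml did not overlap with the vehicle arrays. Stc2, on the same list, did not fall with Stc1 and was not called (0.12 ± 0.08, adjusted p = 0.388, limma). Ctsd, a lysosomal protease, fell (-0.14 ± 0.04), and Htra1, a secreted serine protease, rose (0.22 ± 0.07). Both calls were lost without any 1 of the 3 vehicle arrays and without 50 µg/ml replicate 1 or 2 (Htra1 also without replicate 3), with adjusted p up to 0.109 for Ctsd and 0.13 for Htra1. The Htra1 call was also lost under a second quantile normalization (0.17, adjusted p = 0.143).

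Growth hormone drives Igf1 in many tissues. Of 10 of 10 genes of that axis measured, 2 rose and 1 fell at 50 µg/ml. Ghr, the growth hormone receptor, rose (0.76 ± 0.08, adjusted p = 3.54e-05), as did Socs2, its feedback inhibitor (0.52 ± 0.08, adjusted p = 0.000501). Socs3, a cytokine feedback inhibitor, fell (-0.67 ± 0.05, adjusted p = 1.06e-06). Socs3 was also lower at 1 µg/ml (-0.72 ± 0.05) and Ghr higher (0.33 ± 0.08, adjusted p = 0.0368), and at 10 µg/ml no listed gene was called. The 1 µg/ml call of Ghr was lost without any 1 of the vehicle or 1 µg/ml arrays, with adjusted p up to 0.132.

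Of 13 of 16 receptor adaptors measured, 2 rose and 1 fell at 50 µg/ml. Irs1, the docking protein of the insulin and IGF1 receptors, fell (-0.37 ± 0.06, adjusted p = 0.000974). Ptpn1, a phosphatase that switches those receptors off, rose (0.27 ± 0.05), as did Grb14, an adaptor that inhibits them (0.21 ± 0.05, lost without vehicle replicate 3 or 50 µg/ml replicate 3, adjusted p up to 0.0736). Grb14 was higher at 1 µg/ml (0.29 ± 0.05), a call lost without vehicle replicate 2 or 3 or 1 µg/ml replicate 1 or 3 (adjusted p up to 0.0676). Irs1 was lower there (-0.24 ± 0.06), a call lost without any 1 of the vehicle or 1 µg/ml arrays and without 50 µg/ml replicate 1 or 3 (adjusted p up to 0.171).

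Of 27 of 33 PI3K, AKT and mTOR genes measured, 4 rose and 6 fell at 50 µg/ml. Ddit4, an inhibitor of mTOR complex 1, fell (-1.12 ± 0.11), and so did the PI3K catalytic subunits Pik3cd (-0.49 ± 0.08) and Pik3cb (-0.48 ± 0.08). Foxo3, a transcription factor that AKT holds out of the nucleus, rose (0.38 ± 0.06). At 1 µg/ml 3 of the list fell, among them Ddit4 (-1.17 ± 0.11) and Pik3cb (-0.34 ± 0.08, lost without any 1 of the vehicle or 1 µg/ml arrays or 50 µg/ml replicate 3, adjusted p up to 0.131). Of 20 of 20 FOXO target genes measured, 4 rose and 3 fell at 50 µg/ml. Txnip, an inhibitor of glucose uptake, fell (-1.20 ± 0.07, and -0.74 under a second quantile normalization), as did the muscle ubiquitin ligase Fbxo32 (-0.60 ± 0.09), whereas Gadd45a (0.66 ± 0.08) and Trib1 (0.51 ± 0.06) rose. At 1 µg/ml 4 rose and 1 fell, led by Trib3 (-0.51 ± 0.06) and Cat (0.31 ± 0.06, lost without vehicle replicate 2 or 3 or 1 µg/ml replicate 1 or 2, adjusted p up to 0.0851).

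Of 11 of 14 IGF2 mRNA binding proteins and imprinted growth genes measured, 4 rose and 3 fell at 50 µg/ml. Mest rose (0.62 ± 0.05, and 0.29 under a second quantile normalization), as did the cell cycle inhibitor Cdkn1c (0.53 ± 0.05) and Ndn (0.34 ± 0.08). Of 10 of 12 other genes with an IGFBP domain measured, 2 rose and 3 fell. Ccn3, a secreted matricellular protein, fell (-1.17 ± 0.06, and -0.77 under a second quantile normalization), as did Ccn2 (-0.37 ± 0.05) and the proteoglycan gene Esm1 (-0.51 ± 0.10, lost under a second quantile normalization). Ccn1 rose (0.20 ± 0.05), a call lost without vehicle replicate 2 or 3 or 50 µg/ml replicate 1 (adjusted p up to 0.0696). Ccn1 was higher at 1 µg/ml (0.31 ± 0.05) and Ccn2 lower (-0.28 ± 0.05). The median differences of these 7 lists at 50 µg/ml ran from -0.04 to 0.10, against 0.22 for the members. Both were chosen with earlier results of these data known, so the contrast is a description only.

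**Figure D4:**
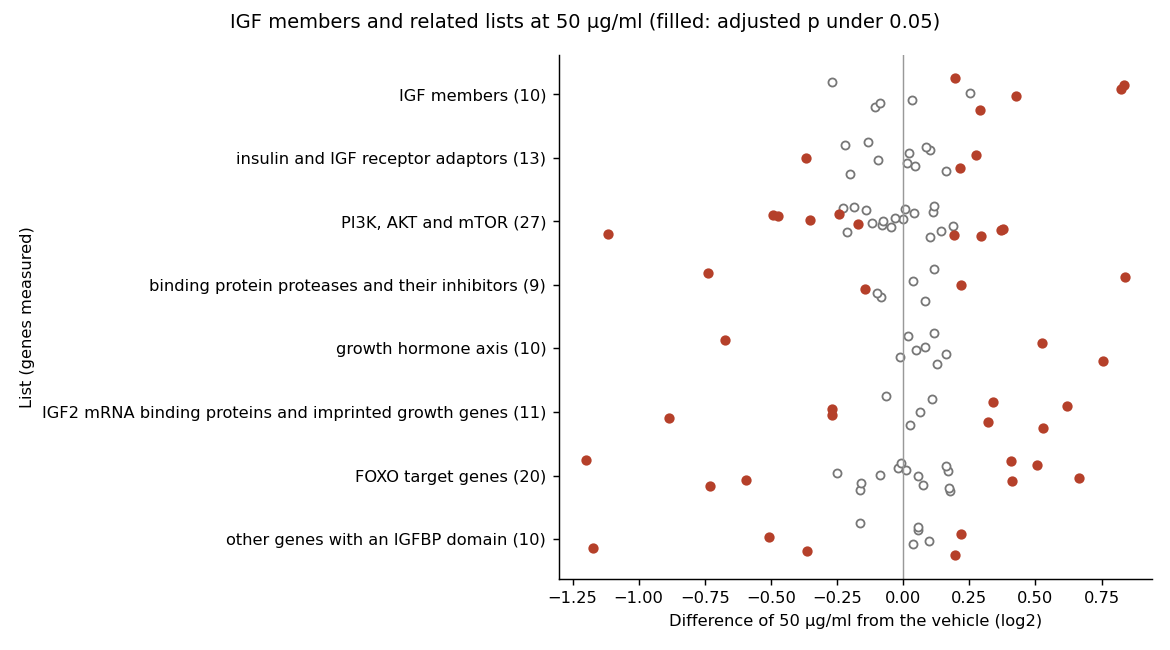
Difference of 50 µg/ml from the vehicle (x axis, log2) for each measured gene of the members and of 7 related lists (y axis, number measured in brackets); filled points passed an adjusted p under 0.05. The members' called genes are all to the right of 0, and each of the other lists has called genes on both sides.

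Markers of other cell types that heart cultures can hold moved with these doses, and fewer cells of a type and less RNA per cell cannot be told apart in bulk samples. All 12 of 12 macrophage markers fell at 50 µg/ml, led by Csf1r (-1.78 ± 0.09) and Lyz2 (-2.32 ± 0.13), with medians over the list of -1.28, -1.17 and -1.28 in the 3 arrays. Of the 8 of 10 epicardial and mesothelial markers measured, 4 rose, with medians of 0.34, 0.23 and 0.25. Of the 8 of 11 endothelial markers measured, 5 rose and 1 fell, with medians of 0.22, 0.29 and 0.30. Of 10 cardiomyocyte markers, 6 rose and 1 fell, led by Myl7 (1.45 ± 0.10), and of 12 fibroblast markers 1 rose and 3 fell, with Fbln1 at 1.00 ± 0.07 and Mfap5 at -1.14 ± 0.06. Of the 8 of 9 smooth muscle and pericyte markers measured, 3 rose and 4 fell. The part of cell type make-up in the members' rises at 50 µg/ml was not tested.

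At 1 µg/ml, the dose at which Igfbp3 fell, 3 of 8 endothelial markers fell, led by Cdh5 (-0.66 ± 0.12) and Tie1 (-0.59 ± 0.11), while Tek, Flt1 and Sox17, named after their values were seen, were at 0.14, 0.02 and -0.08 and not called. The endothelial medians were -0.20, -0.21 and -0.38 in the 3 arrays at 1 µg/ml, and the macrophage medians were -0.16, -0.14 and -0.43. At 10 µg/ml, where Igfbp3 differed from the vehicle by 0.04, the endothelial medians were -0.06, -0.07 and -0.21. The macrophage medians there were -0.34, -0.03 and -0.27, so lower medians were not confined to 1 µg/ml. At 1 µg/ml replicate 3 was the lowest of its group for both lists and for Igfbp3. That array was also the lowest for Igf1 (-0.19), Igf1r (-0.28) and Igfbp4 (-0.35), and the highest for Igfbp5, Igfbp6 and Igfbp7. Its standard deviation over all genes was the widest of the group, 0.15 against 0.12 and 0.12. Of the 12 fibroblast markers 3 fell at 1 µg/ml, as did 2 of the 12 macrophage markers, and no cardiomyocyte, epicardial or smooth muscle marker was called. The part of cell type make-up in the difference of Igfbp3 was not tested.

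**Figure D5:**
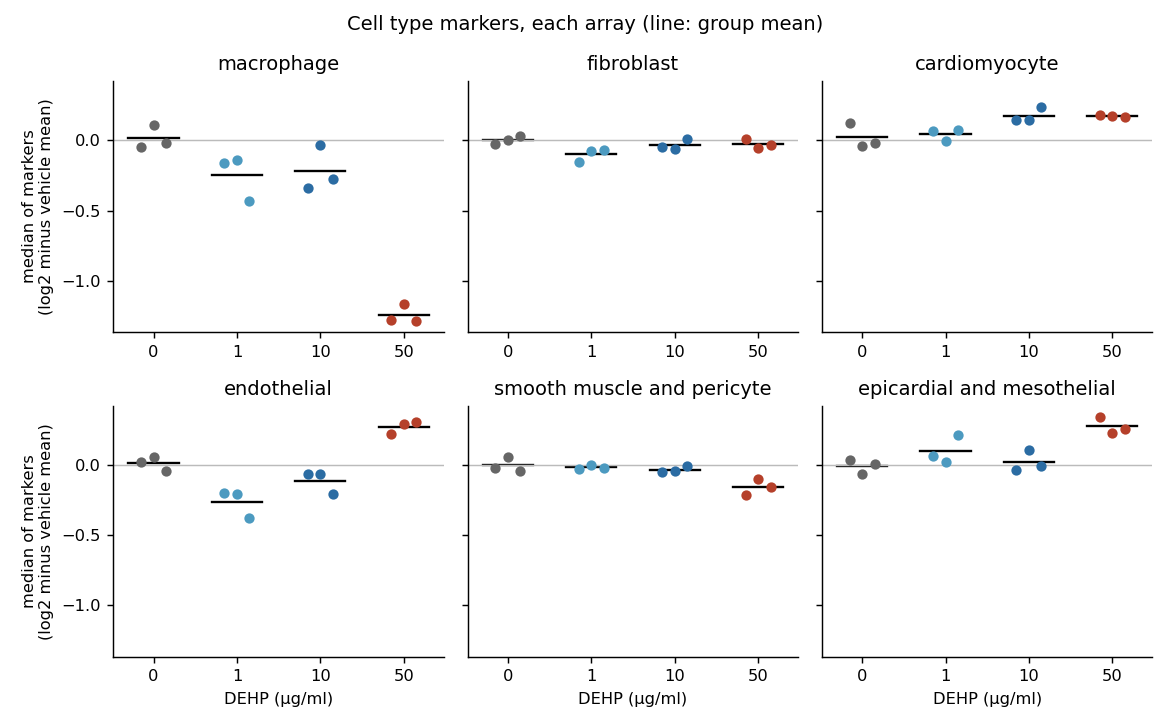
Median over the markers of 6 cell types (1 panel each) in each array, with DEHP dose (µg/ml) on the x axis and log2 minus the vehicle mean on the y axis; points are arrays and lines are group means. Macrophage medians at 50 µg/ml lie at -1.28 to -1.17, and endothelial medians lie below the vehicle at 1 and 10 µg/ml and above it at 50 µg/ml.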

How the data were processed

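Total RNA of 12 cultures was measured on Affymetrix arrays, 1 per sample. The authors processed the arrays with RMA, per the submitters' processing notes. The deposited values are a linear ratio of each array to the probe set's median over the 12 arrays, as the values show (log2 midpoint 0 within 1e-06), so levels are lost. That a larger ratio means more RNA was taken as read. No depth applies, and the number of arrays limits the precision. Of 27342 probe sets, 15097 had 1 gene symbol, 323 several and 11922 none. The 14324 genes, the mean of their probe sets where there were several (499 genes), were fitted as log2 values by limma (3.58.1, under R 4.3.3) on the 12 arrays together, with 8 residual degrees of freedom and a threshold of 0.05 on p-values adjusted over all genes. With 3 against 3 arrays an exact permutation test cannot go below 0.1, so none was used. The model was tested on simulated data. Members and lists were chosen with earlier results of these data known. All 10 members are named, with up to 4 called genes per pathway list at 50 µg/ml and 2 at 1 µg/ml by smallest p. The rule also names up to 2 markers per cell type, and the 3 nearest genes to the 3 members with the largest differences. Named outside this rule were Igfbp1, Stc2 and the endothelial markers Tek, Flt1 and Sox17. Alternatives were a second quantile normalization, median centring, trended or robust moderation, array weights, the compared groups alone, a replicate block, single probe sets and leaving out each array.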

Additional observations from a re-analysis of the deposited data

How the results depend on the processing

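No difference that was called, either as reported or under an alternative, changed sign. Of the members' differences under the alternatives, 1135 kept their sign and their side of the threshold, 35 that were not called changed sign, 20 lost a call and 10 gained one. A second quantile normalization, which gives all arrays the same spread of ratios, called 3 members at 50 µg/ml against the vehicle in place of 5, 2 in place of 5 for 50 against 10 µg/ml, and 4 in place of 7 for both the trend and the F test. With the compared groups alone, 7 members were called at 50 µg/ml against the vehicle, Igfbp3 and Igfbp6 being added, 2 were called for 50 against 10 µg/ml, and the trend and F test could not be run. With array weights 2 members in place of 1 were called for 10 against 1 µg/ml. Leaving out each array in turn gave 3 to 6 members for 50 µg/ml against the vehicle, 0 to 1 for 1 µg/ml, 4 to 5 for 50 against 10 µg/ml, 6 to 7 for 50 against 1 µg/ml, 1 to 2 for 10 against 1 µg/ml, 4 to 7 for the trend and 5 to 7 for the F test. The cause was not tested. Member counts under an alternative are given without the share of all genes called there, so a change in the members is not told apart from one over all genes.

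The labels give replicate numbers no shared source. Deviations of same-numbered arrays correlated at -0.233 to 0.431 over 18 values, and in none of the 6 pairs of groups did all 3 pass 0.1, so the numbers were not taken to pair the cultures. The values were 0.199, -0.08 and -0.0796 for 50 µg/ml and the vehicle, and 0.165, 0.431 and -0.0155 for 50 and 10 µg/ml. With the replicate block 6 members were called at 50 µg/ml, Igfbp6 being added, and the other counts were those without it.

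Of all genes, the 608 called at 1 µg/ml became 1179 (second quantile normalization), 1772 (array weights), 1661 (compared groups alone), 1282 (without 10 µg/ml replicate 2) and 176 to 361 without an array of either group. At 10 µg/ml 0 became 39 (second quantile normalization), 90 (array weights) or 1 (without vehicle replicate 1). For 50 against 10 µg/ml 2091 became 1265, 3457 and 1312 under the second quantile normalization, array weights and the compared groups alone, and for 50 against 1 µg/ml 3562 became 2155 under the first of these. For 10 against 1 µg/ml 2001 became 3155 (array weights), 697 (compared groups alone), 944 and 820 (without 1 µg/ml replicates 1 and 3) and 880 (without 10 µg/ml replicate 2). The trend's 2622 became 1691 without vehicle replicate 1. These are the counts that moved most. The 2520 genes called at 50 µg/ml against the vehicle and the 3901 called by the F test moved less wherever they were counted again, and their counts under the alternatives are not given. No filter on low values could be run, since levels are lost.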
